A study of Mus musculus with 7 samples.

Results

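Intermediate filaments are the tough, rope-like element of the cytoskeleton, and the proteins that build them differ between cell types. Described here are 9 genes of this family in the embryonic mouse kidney and in a kidney cell line: the simple-epithelial keratins Krt7, Krt8, Krt18, Krt19, Krt20 and Krt23, the vimentin gene Vim, the desmin gene Des and the nestin gene Nes. They were chosen by name, with earlier results of these data known. The array annotation links 18193 genes to a probe set (a group of short probes read as one value). All 9 were measured, through 16 probe sets that list exactly 1 gene: 3 each for Krt8, Vim and Nes, 2 for Des and 1 for each of the other 5.

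The study compared epithelial with non-epithelial renal material on 7 Affymetrix mouse arrays. The tissues were microdissected from mouse kidneys at E12.5 (embryonic day), with 2 biological replicate arrays each: metanephric mesenchyme, and the stalk and the tip of the ureteric bud. The ureteric bud is the epithelial tube whose tips branch into the mesenchyme and which becomes the collecting duct system, and the mesenchyme holds the progenitors of the nephron together with stromal cells. The remaining array held mIMCD-3, a mouse inner medullary collecting duct line, as a freshly isolated subclone grown to confluency; being 1 subclone on 1 array, it has no replicate. It was added to tissue arrays published earlier, so its line, its culture and its hybridisation cannot be told apart. The labels give no genotype, strain or treatment for any group.

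Keratins are obligate heteropolymers: a type II chain such as Krt7 or Krt8 pairs with a type I chain such as Krt18, Krt19, Krt20 or Krt23. Krt8 and Krt18 form the basic pair of simple epithelia, and Krt7 and Krt19 are added in ducts, the collecting duct and ureter among them. Vimentin and desmin are type III proteins that assemble without a partner of another type. Vimentin is typical of mesenchymal cells and desmin of muscle and some perivascular cells, while nestin, a type IV protein, is best known from neural and muscle progenitors and copolymerises with vimentin. A switch between keratins and vimentin is a classical sign of the passage between mesenchyme and epithelium.

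RefSeq places Krt8 and Krt18 side by side as protein-coding neighbours, and likewise Krt20 and Krt23, whereas Krt19 lies between Krt15 and Krt9 and Krt7 between Krt80 and Krt87. The window around the RefSeq start of a gene, from 250 bases before it to 20 bases from it on, is printed for the 3 keratin genes with the largest differences between bud and mesenchyme, and for Vim, which takes the opposite course in the tip and the cell line. The build is GRCm38.p6, the strand is that of the gene, and capitals mark matches to the motifs named after the sequences.
Krt8 (chr15:102004323-102004592, minus strand): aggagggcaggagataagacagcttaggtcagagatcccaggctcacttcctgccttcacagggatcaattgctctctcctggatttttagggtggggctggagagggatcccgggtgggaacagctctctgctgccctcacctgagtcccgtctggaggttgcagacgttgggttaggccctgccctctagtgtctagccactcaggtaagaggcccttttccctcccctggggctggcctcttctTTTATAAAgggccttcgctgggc
Krt18 (chr15:102027966-102028235, plus strand): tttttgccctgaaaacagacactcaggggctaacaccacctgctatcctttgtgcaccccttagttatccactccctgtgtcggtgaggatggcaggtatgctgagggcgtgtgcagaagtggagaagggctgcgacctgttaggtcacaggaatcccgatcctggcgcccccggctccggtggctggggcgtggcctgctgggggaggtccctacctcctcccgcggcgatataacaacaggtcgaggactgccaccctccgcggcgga
Krt7 (chr15:101412153-101412422, plus strand): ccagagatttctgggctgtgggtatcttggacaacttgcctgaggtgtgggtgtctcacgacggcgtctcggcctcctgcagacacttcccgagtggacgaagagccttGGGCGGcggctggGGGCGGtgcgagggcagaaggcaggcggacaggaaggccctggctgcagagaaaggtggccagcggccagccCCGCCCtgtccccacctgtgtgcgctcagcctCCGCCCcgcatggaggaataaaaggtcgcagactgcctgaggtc
Vim (chr2:13574061-13574330, plus strand): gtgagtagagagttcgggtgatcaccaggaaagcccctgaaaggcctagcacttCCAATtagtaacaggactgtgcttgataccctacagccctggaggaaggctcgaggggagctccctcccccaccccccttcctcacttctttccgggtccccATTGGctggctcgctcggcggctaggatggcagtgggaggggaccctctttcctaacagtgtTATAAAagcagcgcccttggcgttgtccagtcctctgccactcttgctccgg

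The motifs were searched on both strands. The TATA box, spelled TATAAA, was present in 12.9% of 32851 promoter windows of this length. The GC box, spelled GGGCGG, was present in 34.1% of them and the CCAAT box, searched by the letters of its name, in 35.4%. The core bound by Grainyhead factors, which are regulators of epithelial genes, reads ACCGGT on either strand and was present in 2.0%. Krt7 held 4 GC boxes. Vim held 2 CCAAT boxes and a TATA box that begins 32 bases before the start. In Krt8 the TATA box matched on both strands at the start itself, as 2 overlapping matches, and none of the motifs occurred in the Krt18 window. None of the 8 member genes with a window held the Grainyhead core. A match is only a run of letters, and no match says nothing about a factor.

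Values are log2 of the intensities, and a difference of 1 is a ratio of 2. The array medians lay between 5.39 and 5.62 and the lower quartiles between 3.99 and 4.23, so values near or below 5 are dim and their differences are compressed. In a whole tissue, fewer cells of a type and less RNA per cell cannot be told apart. Differences come from a limma fit of the 6 tissue arrays over all genes, given with their standard error (SE). The spread of each gene is drawn by limma toward that of all genes, and SEs and intervals use this moderated spread. They are therefore not the gene's own replicate spread: for Krt8 the pooled replicate standard deviation was 0.0154 and the SE 0.12. A gene is called where its p, adjusted by Benjamini-Hochberg over all genes, is under 0.05. Both comparisons with mesenchyme use the same mesenchyme arrays. The marker lists matched the labels for the bud: 8 of 9 bud epithelium markers were higher in stalk than in mesenchyme and 9 of 9 in tip, and 7 of 8 nephron progenitor markers were lower in both. Renal stroma markers did not separate stalk from mesenchyme, with 1 of 8 higher and 1 lower, and all 8 were lower in tip.

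Simple keratins marked both parts of the bud. Between stalk and mesenchyme, 5 of the 9 genes were higher (Krt7, Krt8, Krt18, Krt19 and Krt23), where 4.30% of all genes were, and 1 was lower (Des), where 1.24% were. Between tip and mesenchyme the same 5 keratins were higher, against 7.38% of all genes, and Vim and Des were lower, against 8.37%. The median difference of the 9 genes was 1.00 in stalk and 1.56 in tip, and that of all genes was -0.04 and 0.01. Between tip and stalk, Krt23 was higher (2.86% of all genes were) and Vim and Des were lower (6.97% were). In either direction, 6, 7 and 3 of the 9 genes were called, against 5.54%, 15.7% and 9.83% of all genes. With each array set to a common median, all differences between tip and stalk moved up by 0.12, and the split of all genes went from 521 higher and 1268 lower to 1024 and 1085.

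**Figure D1:**
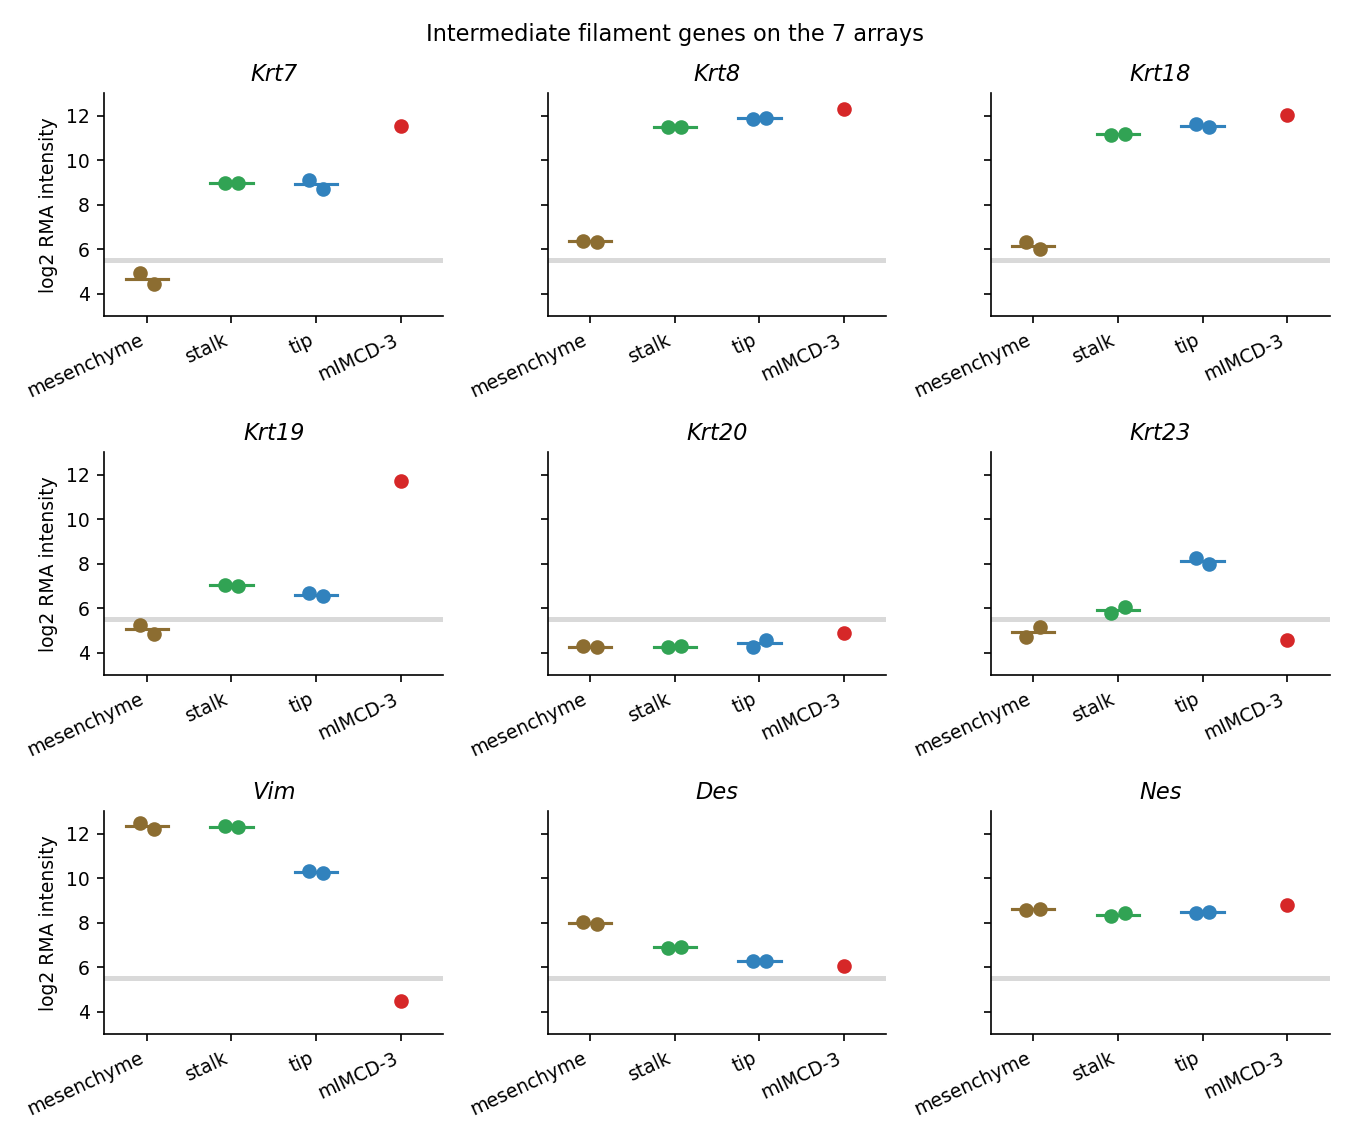
Log2 RMA intensity of each gene (y axis) in mesenchyme, stalk, tip and mIMCD-3 (x axis). Points are arrays, short lines are means of 2 arrays and the grey band spans the array medians (5.39 to 5.62). Krt8 and Krt18 lie above 11 in bud and cell line, and Vim lies above 12 in mesenchyme and stalk and at 4.47 in mIMCD-3.

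Krt8, the type II chain of the basic pair, measured 6.38 and 6.35 in mesenchyme, 11.49 and 11.48 in stalk, 11.88 and 11.90 in tip and 12.31 in mIMCD-3. No group overlapped another. Its level was 5.11 ± 0.12 (SE) higher in stalk than in mesenchyme, a 34.6-fold ratio (limma adjusted p = 1.34e-06), and 5.52 ± 0.12 higher in tip, a 45.8-fold ratio (limma adjusted p = 7.59e-07). Tip exceeded stalk by 0.40 ± 0.12 (95% interval 0.13 to 0.68), which did not pass (limma adjusted p = 0.0825) and passed with the replicate number as a block (adjusted p = 0.025; range over the alternatives 0.0074 to 0.502). The mesenchyme arrays were not at the bottom of the scale: 60.9% and 60.8% of probe sets lay at or below Krt8 there, against 98.1% to 98.8% in the bud arrays.

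The other probe sets of Krt8 gave the same picture. Between stalk and mesenchyme they differed by 4.79 ± 0.13 and 5.36 ± 0.14, and between tip and mesenchyme by 5.10 ± 0.13 and 5.71 ± 0.14. Both carry the suffix x, by which Affymetrix marks sets with probes that can also bind other transcripts, so they are not independent evidence that Krt8 alone was read.

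Krt18, the type I partner, measured 6.33 and 6.003 in mesenchyme, 11.16 and 11.19 in stalk, 11.62 and 11.48 in tip and 12.01 in mIMCD-3. The order of the groups was that of Krt8, again without overlap. The difference was 5.01 ± 0.15 between stalk and mesenchyme (limma adjusted p = 5.06e-06) and 5.39 ± 0.15 between tip and mesenchyme (limma adjusted p = 1.6e-06). Tip against stalk gave 0.38 ± 0.15 (95% interval 0.03 to 0.73; limma adjusted p = 0.188), not called without the block or with it (adjusted p = 0.056; range over the alternatives 0.0433 to 0.672). The intervals of the partners overlapped in each of the 3 comparisons.

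To set profiles side by side, each gene's 7 values were centred on their mean, and the root mean square (RMS) difference between 2 profiles was taken. The neighbours Krt8 and Krt18 were 0.10 apart, and among all 18193 genes each had its partner as the nearest. Next to Krt8 came Cldn7, a claudin gene of tight junctions (0.31), Kdf1 (0.34), Tmem30b (0.40) and Esrp1, an epithelial splicing regulator (0.43). Krt18 had Kdf1 (0.30), Cldn7 (0.34), Tmem30b (0.39) and the desmoplakin gene Dsp (0.47). The other neighbours, Krt20 and Krt23, were 1.45 apart. Krt20 was dim and nearly flat, with a range of 0.66 over the 7 arrays against 3.69 for Krt23. Its RMS difference from Nes was 0.16.

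Krt7, the duct-type type II keratin, stood at 4.92 and 4.45 in mesenchyme, 8.98 and 8.98 in stalk, 9.13 and 8.72 in tip and 11.52 in mIMCD-3. Stalk and tip overlapped and differed by -0.06 ± 0.20 (95% interval -0.53 to 0.40; limma adjusted p = 0.886). Both were far above mesenchyme, by 4.30 ± 0.20 in stalk (19.7-fold; limma adjusted p = 2.42e-05) and 4.24 ± 0.20 in tip (18.9-fold; limma adjusted p = 9.27e-06). The mesenchyme values were dim, with 40.9% and 30.3% of probe sets at or below them. Krt7 stayed below the cell line in both parts of the bud, and its profile was nearest to those of F3, the tissue factor gene (RMS 0.40), and Tmem30b (0.45).

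Krt19, a type I keratin of ducts, measured 5.26 and 4.86 in mesenchyme, 7.06 and 7.01 in stalk, 6.67 and 6.57 in tip and 11.72 in mIMCD-3. It was higher in stalk than in mesenchyme by 1.98 ± 0.16 (3.93-fold; limma adjusted p = 0.000356) and in tip by 1.56 ± 0.16 (2.96-fold; limma adjusted p = 0.000384). Its stalk arrays lay above its tip arrays, the reverse of Krt8 and Krt18. That difference was -0.41 ± 0.16 (95% interval -0.79 to -0.04), not called without the block (limma adjusted p = 0.186) and called with it (adjusted p = 0.046; range over the alternatives 0.046 to 0.653).

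Krt23, a little-studied type I keratin, was the tip keratin of this group. It measured 4.70 and 5.14 in mesenchyme, 5.78 and 6.05 in stalk, 8.26 and 7.98 in tip and 4.57 in mIMCD-3. The tip arrays stood clear of all others: tip exceeded stalk by 2.205 ± 0.19 (4.61-fold; limma adjusted p = 0.000353) and mesenchyme by 3.20 ± 0.19 (9.19-fold; limma adjusted p = 2.48e-05). Stalk exceeded mesenchyme by 1.00 ± 0.19 (limma adjusted p = 0.0245), a call lost without mesenchyme replicate 1 (difference 0.77, adjusted p = 0.125) and without stalk replicate 1 (1.13, adjusted p = 0.0506) or 2 (0.86, adjusted p = 0.159), and after median centring of the arrays (0.90, adjusted p = 0.0513), out of a range of 0.00516 to 0.159. The 5 genes with the nearest profiles were Aldh1a3, which encodes an enzyme of retinoic acid synthesis (RMS 0.21), L1td1 (0.21), the Wnt ligand gene Wnt11 (0.21), the receptor tyrosine kinase gene Ros1 (0.22) and Tmem59l (0.25).

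Krt20, known from urothelial umbrella cells and the gut, was dim everywhere: the 6 tissue arrays lay between 4.25 and 4.57 and mIMCD-3 at 4.91. Only 26.5% to 31.7% of probe sets lay at or below it in the tissues. None of its 3 differences passed, and the largest was 0.15 ± 0.14 between tip and mesenchyme (95% interval -0.18 to 0.48; limma adjusted p = 0.639). The urothelium markers (Upk1a, Upk1b, Upk2, Upk3a, Krt5 and Trp63) likewise had 0 of 6 called in each of the limma comparisons, with 0 at an unadjusted p under 0.05. With the replicate block, 1 of the 6 (Upk2, named after its values were seen) was called between tip and stalk.

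**Figure D2:**
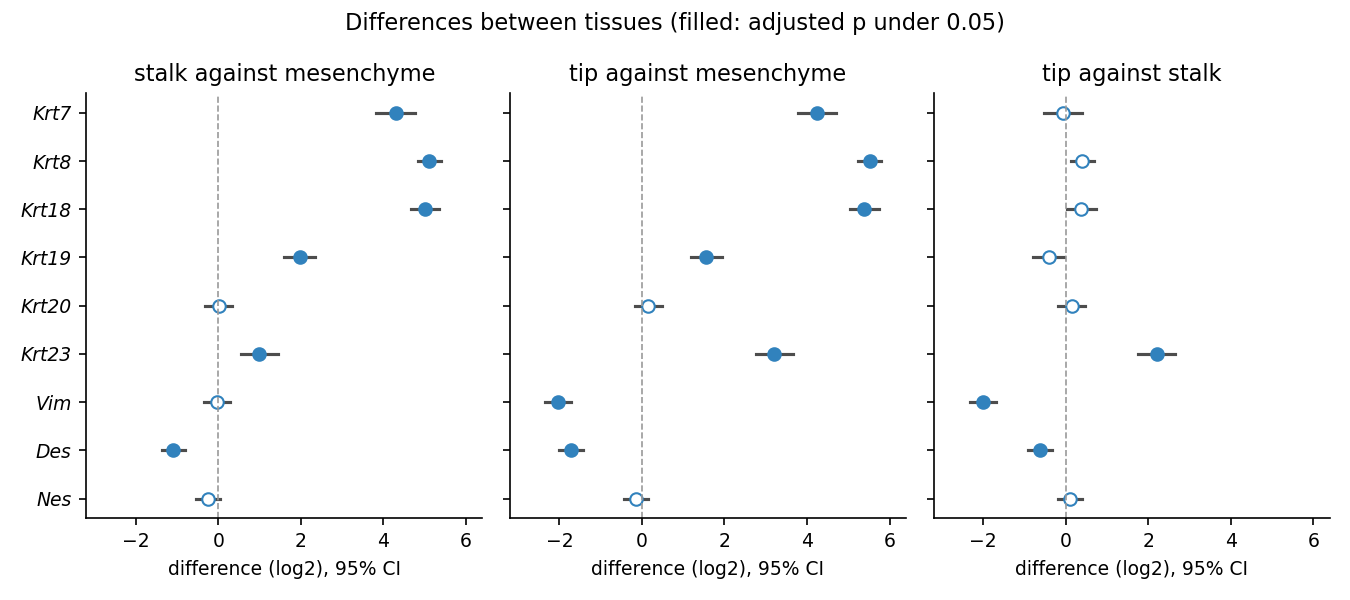
Difference in log2 intensity (x axis) for each gene (y axis) in the 3 tissue comparisons, with 95% intervals of the limma fit; filled points passed an adjusted p of 0.05. Krt7, Krt8 and Krt18 sit between 4.24 and 5.52 against mesenchyme, and Vim is at -0.03 in stalk and -2.04 in tip.

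Vimentin separated tip from stalk rather than bud from mesenchyme. Vim measured 12.46 and 12.23 in mesenchyme, 12.34 and 12.29 in stalk, 10.35 and 10.26 in tip and 4.47 in mIMCD-3. Stalk and mesenchyme overlapped, with a difference of -0.03 ± 0.14 (95% interval -0.35 to 0.28; limma adjusted p = 0.969). Tip was lower than stalk by a difference of -2.01 ± 0.14 (limma adjusted p = 0.000111), so stalk held 4.03 times the tip level, and than mesenchyme by -2.04 ± 0.14 (limma adjusted p = 3.83e-05). Tip was still bright, with 94.97% and 95.22% of probe sets at or below it.

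All 3 probe sets of Vim shared this course. The set that stands for Vim carries the suffix x explained for Krt8, and the other 2 do not. Between tip and stalk the other 2 gave -2.32 ± 0.13 and -2.39 ± 0.18, and between stalk and mesenchyme -0.06 ± 0.13 and -0.10 ± 0.18. In mIMCD-3 they read 5.50 and 3.70, against 9.77 and 9.004 in the lowest tip array.

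The stroma markers moved with Vim across the tissues. Their mean level over 8 genes was 10.27 and 10.11 in mesenchyme, 10.30 and 10.18 in stalk, 7.06 and 6.59 in tip and 5.09 in mIMCD-3, and their median difference between tip and stalk was -3.51. In summed intensity this was 12364 to 13149 in mesenchyme, 12932 to 13697 in stalk and 1156 to 1535 in tip. Endothelium markers (8 of 8 lower in tip than in stalk, median -1.29) and nephron progenitor markers (7 of 8 lower, median -1.36) went down in tip as well, but their medians were already lower in stalk than in mesenchyme, at -0.60 and -1.94. There 4 of 8 endothelium markers were called lower (7 of 8 with the replicate block) and 7 of 8 progenitor markers. Erythroid markers had 3 of 5 lower in stalk than in mesenchyme and 4 of 5 lower in tip than in stalk (medians -0.85 and -0.72), and myeloid markers 1 of 7 and 3 of 7 (medians -0.46 and -0.19). The part of any of these cells in the Vim values was not tested. The nearest profiles to Vim were those of the apelin receptor gene Aplnr (RMS 0.19), Shisa3 (0.36), the transcription factor gene Tcf21 (0.37), the PDGF receptor gene Pdgfrb (0.38), itself on the stroma list, and the embryonic globin gene Hba-x (0.38).

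**Figure D3:**
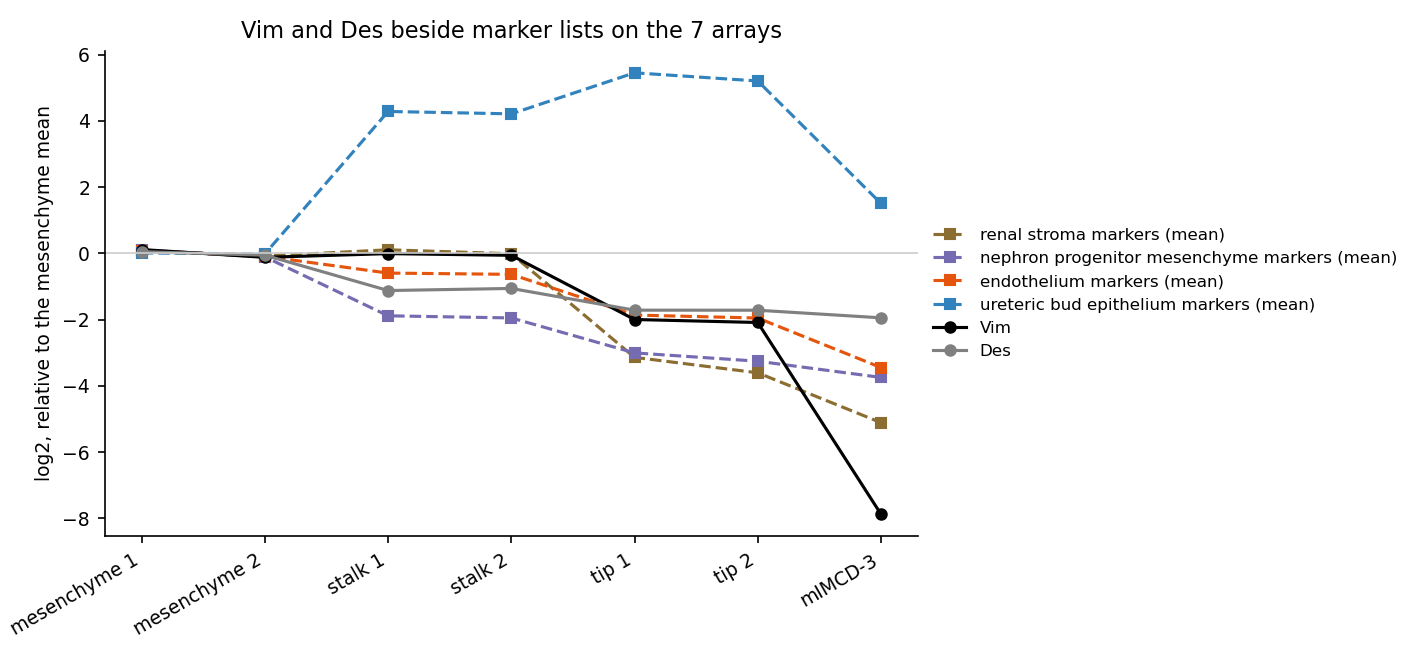
Log2 level relative to the mean of the mesenchyme arrays (y axis) on each of the 7 arrays (x axis) for Vim and Des and for the mean of 4 marker lists. Vim and the stroma markers stay near 0 in both stalk arrays and drop in both tip arrays, while the progenitor markers are already low in stalk.

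Desmin fell in steps. Des measured 8.04 and 7.94 in mesenchyme, 6.87 and 6.93 in stalk, 6.28 and 6.27 in tip and 6.05 in mIMCD-3, so no groups overlapped. The difference was -1.09 ± 0.12 between stalk and mesenchyme (limma adjusted p = 0.0017), -1.71 ± 0.12 between tip and mesenchyme (limma adjusted p = 5.59e-05) and -0.62 ± 0.12 between tip and stalk (limma adjusted p = 0.0165). The last was lost without stalk replicate 1 (-0.66, adjusted p = 0.142) or 2 (-0.59, adjusted p = 0.187), out of a range of 0.00384 to 0.187.

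The second probe set of Des did not show this. It measured 4.37 to 4.58 in mesenchyme, 4.72 and 4.76 in stalk, 4.49 and 4.91 in tip and 4.14 in mIMCD-3, all dim, and its differences of 0.27, 0.22 and -0.04 were not called (limma adjusted p = 0.69, 0.562 and 0.919). With the mean of both sets as the gene's value, Des was not called between stalk and mesenchyme (-0.41, adjusted p = 0.125) or tip and stalk (-0.33, adjusted p = 0.144), and its difference between tip and mesenchyme went from -1.71 to -0.74 (adjusted p = 0.00425). Beside the brighter set, the smooth muscle markers had 1 of 6 lower in stalk than in mesenchyme and 3 of 6 in tip, with a mean level of 5.65 and 5.80 in mesenchyme, 5.41 and 5.50 in stalk and 4.97 and 5.17 in tip. Of 7 skeletal muscle markers, 1 was higher in stalk than in mesenchyme (Actc1) and 2 were lower in tip than in either (Actc1 and Tnnt1). Actc1 measured 8.52 and 8.62 in mesenchyme, 11.14 and 11.25 in stalk and 5.91 and 6.11 in tip, and it was the 1 marker of this list called between stalk and mesenchyme. The defining Myod1, Myog and Myf5 had no call in any comparison, and Myf5 lay between 2.75 and 2.97 on the tissue arrays. The endothelium, nephron progenitor, erythroid and myeloid medians set beside Vim also fell in both steps, and the stroma median only in tip. The nearest profiles to Des were those of Cacnb4 (RMS 0.11), Akr1c14 (0.12), Lrrtm4 (0.13), Ngfr (0.13) and Flt4 (0.14). The part of muscle or any other cells in the Des values was not tested.

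Nestin was flat. Nes measured 8.58 and 8.63 in mesenchyme, 8.30 and 8.42 in stalk, 8.44 and 8.49 in tip and 8.82 in mIMCD-3. The mesenchyme arrays lay above all bud arrays, yet the differences of -0.24 ± 0.12 in stalk (95% interval -0.53 to 0.05; limma adjusted p = 0.503) and -0.14 ± 0.12 in tip (95% interval -0.43 to 0.15; limma adjusted p = 0.622) did not pass. The other 2 probe sets lay at 5.74 to 6.42 and 3.18 to 3.75 on the tissue arrays and were not called either. The range of Nes over the 7 arrays, 0.52, was larger than that of 26.6% of genes.

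**Figure D4:**
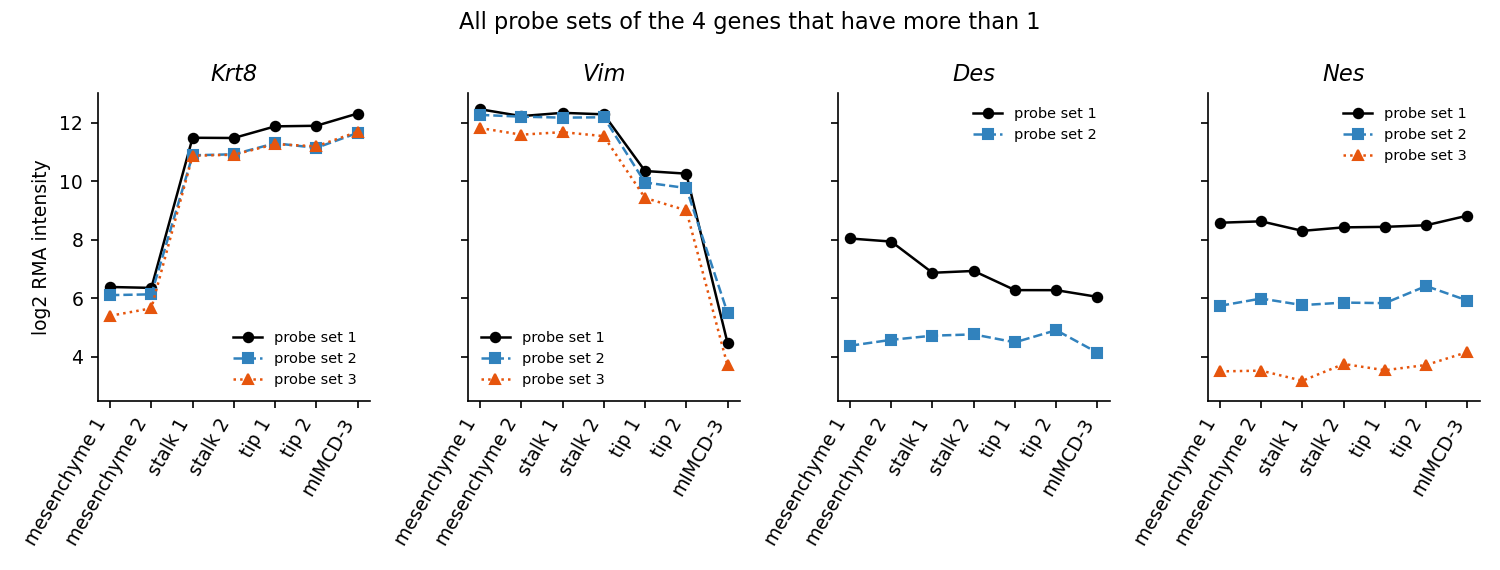
Log2 RMA intensity (y axis) of every probe set of Krt8, Vim, Des and Nes on the 7 arrays (x axis). The 3 sets of Krt8 and the 3 of Vim follow the same course, but probe sets 1 and 2 of Vim change order in mIMCD-3 (4.47 and 5.50). The brighter set of Des falls from 8.04 to 6.05 while the other stays between 4.14 and 4.91.

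mIMCD-3 stood apart from all tissue arrays in Krt7, Krt19 and Vim. By a rule of size, at least 1 log2 unit beyond the highest or lowest of the 6 tissue arrays, 2 of the 9 genes were higher in mIMCD-3 (Krt7 and Krt19; 6.31% of all genes were) and 1 was lower (Vim; 5.13% were). With a rule of 2 log2 units the same genes passed, against 1.47% higher and 2.11% lower. With 1 array these are sizes without a test. Krt8 and Krt18 lay 0.42 and 0.39 above their highest tissue array.

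Krt19 showed the largest gain, 4.66 above the highest stalk array, and stood 25.8-fold over the stalk mean and 34.3-fold over the tip mean. Krt7 was 2.39 above its highest tip array, 5.80-fold over stalk and 6.05-fold over tip. Together with Krt8 and Krt18, these 4 keratins were at or above 98.1% of probe sets in mIMCD-3. In the bud arrays Krt19 reached only 63.9% to 67.5%. The mesothelium list, which holds Krt19, also had the mesothelin gene Msln past the tissues (8.95, or 3.92 above the highest tissue array), while its Upk3b was at 4.16, its Lrrn4 at 3.54 and its Wt1 at 5.11 in the line. By the size rule 2 of these 5 markers were higher and 1, Wt1, was lower (-1.15 from its lowest tissue array).

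Vim, in contrast, differed from the lowest tip array by -5.79, so that the tip mean was 56.9-fold and the stalk mean 229-fold over the line. At 4.47 it was dimmer than the median probe set, with 34.6% of probe sets at or below it, so these ratios carry the uncertainty of a value close to background. They are also those of the probe set that stands for Vim. Its other sets differed from their lowest tip array by -4.265 and -5.30, so the size of the ratios depends on the set. Of the stroma markers 5 of 8 were lower in the line by the size rule, and of the endothelium markers 7 of 8. Of the 9 bud epithelium markers, 0 were higher and 1 was lower by that rule, Calb1, at 3.38 or -2.19 from its lowest tissue array. Cdh1, Epcam, Emx2 and Cdh16 stood at 10.88, 10.79, 9.44 and 9.42 in mIMCD-3. Wnt11, Wnt9b, Gata3 and the tip receptor gene Ret stood at 6.65, 5.22, 4.48 and 4.12, within 1 log2 unit of their lowest mesenchyme array. Krt23 was at 4.57 in the line, a difference of -3.55 from the tip mean and of -0.13 from its lowest mesenchyme array. The latter changed sign, to 0.0153, with arrays centred on their medians. Des differed from its lowest tissue array by -0.23, and Nes lay 0.19 above its highest.

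Nearest to Krt19 in profile were the galectin gene Lgals3 (RMS 0.35), the annexin gene Anxa1 (0.44) and the gelsolin-family gene Scin (0.46). Shtn1 (0.47) and the ferlin gene Myof (0.49) followed. The profile of Krt19 is set largely by its single mIMCD-3 array, so a rise in the line was part of how these genes were picked. Lgals3 went from 4.81 in mesenchyme, 7.19 in stalk and 6.49 in tip to 12.45 in mIMCD-3. All likeness is descriptive, over 7 arrays of 4 groups.

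**Figure D5:**
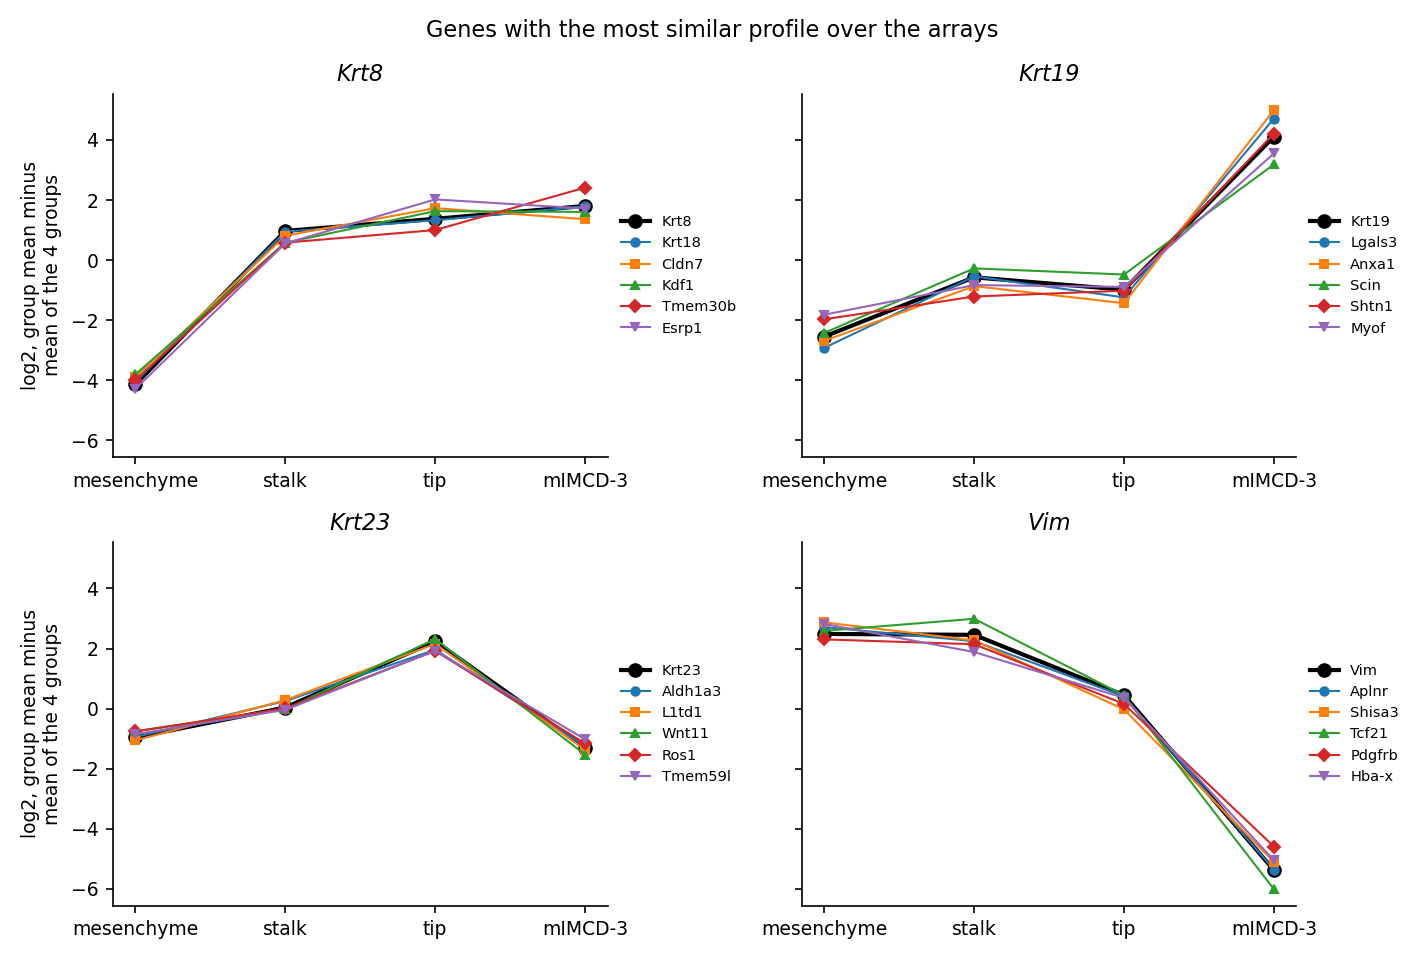
Group levels in log2 units, centred on the mean of the 4 groups (y axis), in mesenchyme, stalk, tip and mIMCD-3 (x axis) for Krt8, Krt19, Krt23 and Vim (black) and the 5 genes with the smallest RMS difference from each. Krt18 overlies Krt8, at an RMS difference of 0.10.

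Among the other intermediate filament genes, Nefl, Nefm and Lmna were called and the further keratins were not. Of 16 further keratins, mostly of stratified epithelia, 0 were called in each of the 3 limma comparisons and 0 with the replicate block. At an unadjusted p under 0.05 there were 0, 0 and 1. Also 0 of 16 passed the size rule in mIMCD-3. Of 8 other type III and type IV genes, 2 were lower and 0 higher in every comparison. These were Nefl and Nefm, which encode the light and medium neurofilament chains of axons, while the heavy chain gene Nefh was not called (differences of -0.25, 0.14 and 0.39). With the replicate block, 4 of the 8 were called between tip and stalk: Nefl and Nefm lower, and Prph (0.72) and Gfap (0.37) higher. Over all 18193 genes that fit had 1623 higher and 2131 lower. Nefh, Prph and Gfap were named after their values were seen. Nefl went from 7.30 in mesenchyme to 5.76 in stalk and 4.28 in tip (tip against mesenchyme -3.02 ± 0.14), and Nefm from 7.22 to 6.31 and 4.11 (-3.11 ± 0.17). Of 6 neuron and neural crest markers, 2 were lower in stalk and in tip than in mesenchyme (Elavl4 and Stmn2). Their part in the neurofilament values was not tested.

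Of 5 lamin and lens filament genes, only Lmna, the A-type nuclear lamin, was called: 1.30 ± 0.23 higher in stalk (limma adjusted p = 0.0152) and 1.06 ± 0.23 higher in tip (limma adjusted p = 0.0157). It was 2.99 above its highest tissue array in mIMCD-3, where the B-type lamin gene Lmnb1, named after its values were seen, differed from its lowest tissue array by -2.17.

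Proteins that anchor or bind intermediate filaments followed the keratins in part. Of 19 such genes, 8 were higher and 0 lower in stalk than in mesenchyme (median 0.12), where 4.30% and 1.24% of all genes were. In tip 8 were higher and 2 lower than in mesenchyme (median 0.28), against 7.38% and 8.37%. Between tip and stalk 2 were higher and 1 lower, against 2.86% and 6.97%. In either direction against mesenchyme, stalk and tip had 9 and 10 called with the replicate block. With trend and robust variance they had 6 and 11. Dsp, which ties keratins to desmosomes, was 4.02 ± 0.27 higher in stalk and 4.35 ± 0.27 higher in tip (limma adjusted p = 0.000139 and 2.62e-05). Pkp2, a desmosomal plaque gene, was 2.27 ± 0.17 and 3.43 ± 0.17 higher and also separated tip from stalk (1.16 ± 0.17; limma adjusted p = 0.00465). The small heat shock gene Hspb1 was 1.37 ± 0.16 higher in stalk and 0.98 ± 0.16 higher in tip. Dst, a plakin gene, was lower in tip than in mesenchyme (-1.40 ± 0.16; limma adjusted p = 0.000739). In mIMCD-3, 8 of the 19 were past the tissues upward and 0 downward by the size rule, against 6.31% and 5.13% of all genes. The filament-binding chaperone gene Cryab, picked out after its values were seen, lay 7.89 above its highest tissue array there.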

How the data were processed

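The authors deposited intensity values on a linear scale, from 5.08 to 19587, made by robust multichip analysis (RMA, per the submitters' processing notes) over all 7 arrays together, per the series' design text; RMA corrects background, equalises probe distributions and summarises each probe set, gives no detection calls and compresses dim differences. Its software is not given in the sources used here. Values were converted to log2 here. Of 45101 probe sets, 34945 list exactly 1 gene in the array annotation, and the one with the highest mean over the 7 arrays stands for each of 18193 genes. The 6 tissue arrays were fitted by group with limma 3.58.1 (R 4.3.3; 3 residual degrees of freedom), two-sided, with Benjamini-Hochberg adjustment over all genes, and the other probe sets of the member genes in the same model over all 34945. The fit was tested on simulated data with independent noise on each array, so that test did not cover the correlation between replicate differences given below. mIMCD-3 was described by size only.

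The labels do not say that replicate numbers pair arrays. Differences between replicates 1 and 2 correlated across probe sets at 0.39 (mesenchyme and stalk), 0.57 (mesenchyme and tip) and 0.43 (stalk and tip), so a fit with the number as a block was an alternative. Named genes are the 9 members, up to 4 called genes per filament list with the largest differences, up to 5 nearest profiles per member and marker genes. Others are marked where named. Members and lists were chosen with earlier results of these data known. Python 3.11.15 with matplotlib 3.10.9 made the figures. The alternatives are in the closing section.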

Additional observations from a re-analysis of the deposited data

How the results depend on the processing

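Of the 27 tested differences of the 9 genes, 16 kept their direction and their side of the threshold under every alternative. Several alternatives return the same difference by construction and could move only the adjusted p. These are the block, a fit of only the 2 groups compared, trend and robust variance, testing all probe sets and leaving out dim genes. Leaving out an array of the group not compared is another, and it repeats the fit of the 2 groups. The counts of 5 keratins higher against mesenchyme (4 in stalk with centred arrays) were 4 to 5 in stalk and 5 in tip when arrays were left out, and Vim and Des were lower in tip than in mesenchyme under every alternative, Des by the least (-0.74) with the mean of all probe sets. Stalk against mesenchyme had 0 genes lower with the mean of all probe sets, where Des was lost. Between tip and stalk, 2 member genes were higher with the replicate block, with arrays centred on their medians and without the dimmest 40% of genes. With trend and robust variance 3 were higher (Krt8 and Krt18 added), and 1 was lower with the mean of all probe sets. Leaving out 1 array gave 1 to 2 lower, with 1 without either stalk array. Over all 18193 genes the calls between tip and stalk moved as well, from 521 higher and 1268 lower in the main fit. They were 1623 and 2131 with the block, 890 and 1719 with trend and robust variance and 1024 and 1085 with centred arrays. Without the dimmest genes they were 638 and 1288 of 10916. The block changed no call of the members other than those of Krt8 and Krt19 between tip and stalk. Small differences that were not called changed sign: Krt20 between stalk and mesenchyme was -0.0875 with centred arrays and -0.0252 to 0.042 with an array left out, Vim there -0.148 to 0.0867, Nes between tip and mesenchyme 0.0795 with the mean of all probe sets, Krt7 between tip and stalk 0.0551 with centred arrays and -0.26 to 0.14 with an array left out, and Krt20 there -0.0012 to 0.287. Where no construction shows it, the cause was not tested. Krt20 was not among the genes kept without the dimmest 40%. With a rule of 2 log2 units the mIMCD-3 counts were the same. The 2 arrays a group, and for mIMCD-3 the single array, limit every value, and values near the lower quartile give compressed ratios.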
